A study of Homo sapiens with 24 samples.

Results

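The insulin-like growth factor (IGF) axis was described through 10 genes, chosen by symbol out of 60675 in the count files. They comprise the ligands IGF1 and IGF2, the receptors IGF1R and INSR, the receptor adapters IRS1 and IRS2, and the binding proteins IGFBP2, IGFBP4, IGFBP5 and IGFBP6. Their mRNA was measured by RNA-seq in 24 libraries from LNCaP:C4-2, a castration-resistant derivative of the LNCaP prostate cancer line, and 22Rv1, a prostate cancer line derived from the CWR22R xenograft. In medium with charcoal-stripped serum, which is low in steroids, cells of each line received a pool of non-targeting control siRNAs (siSCR) or a pool of siRNAs against METTL3 (siMETTL3), the catalytic subunit of the m6A RNA methyltransferase. They were then given ethanol (vehicle) or the synthetic androgen R1881 at 1 nM for 72 h, which gives 8 conditions of 3 libraries each.

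IGF1 and IGF2 are secreted peptides that bind IGF1R, a receptor tyrosine kinase, and IGF2 also binds an isoform of the insulin receptor INSR. The activated receptors phosphorylate IRS1 and IRS2, which recruit PI3-kinase and so switch on AKT and mTOR. The IGFBPs bind IGFs outside the cell and hold them away from, or deliver them to, the receptor. In the prostate the axis is known as a growth and survival pathway.

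The labels number the 3 libraries of a condition but do not say whether they came from separate cultures, so the p-values measure the spread between these libraries, which may be technical. Library totals ran from 15716224 to 21306019 counted fragments, of which 3.93% to 9.73% were on mitochondrial genes. All 10 prostate luminal markers reached a mean of at least 1 TPM (transcript abundance scaled by exonic length and library total) in both lines, whereas 0 of 3 basal and 0 of 4 immune markers did in either line, 2 of 7 stromal markers did in each, and 1 of 3 endothelial markers did in LNCaP:C4-2 and 0 in 22Rv1. The androgen target KLK3 went from 13.3 ± 2.19 to 211 ± 19.5 TPM with R1881 in LNCaP:C4-2 siSCR cells, and had 5.31 ± 0.344 and 5.27 ± 0.506 TPM in those of 22Rv1 (SD, n = 3). In bulk RNA a change in the share of cells that express a gene and a change in RNA per cell cannot be told apart.

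METTL3 itself was lower in every siMETTL3 library than in every siSCR library of the same line and treatment. In LNCaP:C4-2 it ran from 16.2 to 18.4 CPM (counts scaled by normalised library size) against 25.1 to 29.2 CPM in vehicle (1.53-fold lower, edgeR quasi-likelihood test, adjusted p = 0.0127). That call was lost without siSCR replicate 1 or 3 (edgeR adjusted p = 0.0982 and 0.0671) or siMETTL3 replicate 2 (0.0552), and fell under the fold threshold without siMETTL3 replicate 3 (log2 -0.55). With R1881 it ran from 20.7 to 21.4 against 28.3 to 33.5 CPM, which is 1.48-fold lower and just under the 1.5-fold threshold for a call (edgeR adjusted p = 0.0256), which it passed without siSCR replicate 1 (log2 -0.65). In 22Rv1 it ran from 26.1 to 27.4 against 49 to 50.4 CPM in vehicle (1.85-fold lower, edgeR adjusted p = 1.48e-06) and from 22.4 to 26.1 against 52 to 55.1 CPM with R1881 (2.27-fold lower, edgeR adjusted p = 1.29e-08). To be called, a gene had to differ by at least 1.5-fold with an adjusted p (Benjamini-Hochberg, over all genes tested) under 0.05.

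IGF1R, IRS1 and IRS2 are the members whose responses to R1881 differed most between the lines, and the 250 bases before their RefSeq starts (GRCh38.p14) are shown for that reason. Capitals mark the GC box GGGCGG, or CCGCCC where it lies on the other strand, and neighbouring matches may overlap. The windows are chr15:98648289-98648538 on the plus strand for IGF1R, chr2:226799821-226800070 on the minus strand for IRS1 and chr13:109786584-109786833 on the minus strand for IRS2, printed 5′ to 3′ in the direction of the gene.
IGF1R: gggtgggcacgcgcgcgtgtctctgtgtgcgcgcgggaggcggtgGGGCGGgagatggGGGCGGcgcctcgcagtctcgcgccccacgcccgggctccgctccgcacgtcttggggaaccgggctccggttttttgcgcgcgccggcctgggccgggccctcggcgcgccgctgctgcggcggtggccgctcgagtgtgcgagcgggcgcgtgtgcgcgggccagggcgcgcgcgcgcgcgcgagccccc
IRS1: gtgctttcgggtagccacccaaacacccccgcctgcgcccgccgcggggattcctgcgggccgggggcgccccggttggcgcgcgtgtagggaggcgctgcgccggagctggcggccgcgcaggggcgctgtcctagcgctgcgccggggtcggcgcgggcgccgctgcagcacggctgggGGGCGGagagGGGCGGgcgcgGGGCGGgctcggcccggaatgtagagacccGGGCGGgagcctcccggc
IRS2: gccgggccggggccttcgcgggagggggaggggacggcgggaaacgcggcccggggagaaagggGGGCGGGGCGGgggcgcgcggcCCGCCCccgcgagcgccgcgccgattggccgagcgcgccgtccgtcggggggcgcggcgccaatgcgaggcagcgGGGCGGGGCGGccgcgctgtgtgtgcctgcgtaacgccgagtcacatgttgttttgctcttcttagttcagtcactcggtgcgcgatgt
These windows held 2, 4 and 5 matches to the GC box and were 81.2%, 80.8% and 76.4% G or C, against a median of 58% over 27305 RefSeq promoter windows of this length, of which 42.3% held a GC box. INSR, which was not called with R1881 in either line, had 4 matches and 78.4% G or C. The windows of IGF1R, IRS1 and IRS2 held 0 matches to the androgen receptor half-site AGAACA, which 12.4% of the RefSeq windows held. For the TATA box TATAAA it was 0 as well, beside 11.1%. A match describes letters only. RefSeq windows were found for 9 of the 10 members, all but IGF2.

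Compared per exonic length, the lines differed widely in the adapter IRS2, which was the most abundant member in 22Rv1. In siSCR with vehicle IRS2 had 192 ± 22.3 TPM (SD, n = 3) in 22Rv1 and 1.71 ± 0.146 TPM in LNCaP:C4-2. The 22Rv1 libraries had 8632, 8181 and 6850 counts and the LNCaP:C4-2 libraries 78, 92 and 71, so the groups were far apart. The fit over all 24 libraries gave a 94.1-fold higher level in 22Rv1 (log2 6.56 ± 0.20, edgeR adjusted p = 1.33e-20). With R1881 the difference was 17-fold (log2 4.09 ± 0.17, edgeR adjusted p = 1.12e-17).

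In LNCaP:C4-2 with siSCR and vehicle, the order of levels was led by IGFBP2 at 32.9 ± 4.82 TPM, then INSR at 11.7 ± 0.567, IRS1 at 3.36 ± 0.531, IGFBP5 at 2.44 ± 0.467 and IGF1R at 2.14 ± 0.192 TPM. Below these came IRS2, IGF1, IGF2, IGFBP4 and IGFBP6, at 1.71 to 0.444 TPM. Of neighbours in this order, IGFBP5 and IGF1R overlapped in their libraries, as did IGF1 and IGF2, and IGFBP4 and IGFBP6. With R1881 the order became IGFBP2 at 21.3 ± 6.22, IGF1R at 21.2 ± 4.04, IRS1 at 12.8 ± 2.85, INSR at 10.8 ± 0.874 and IRS2 at 6.07 ± 2.37 TPM. The libraries of IGFBP2 overlapped those of IGF1R, and those of IRS1 overlapped those of INSR.

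In 22Rv1 with siSCR and vehicle IRS2 was followed by IGFBP2 at 34.7 ± 6.65, INSR at 32.1 ± 1.22, IRS1 at 11.5 ± 1.74, IGFBP6 at 4.19 ± 0.827 and IGF1R at 1.69 ± 0.138 TPM. IGFBP2 and INSR overlapped. IGF1, IGF2, IGFBP4 and IGFBP5 were at 0.254 TPM or less. With R1881 INSR, at 27.6 ± 0.504 TPM, stood above IGFBP2 at 12.4 ± 1.6 TPM.

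**Figure D1:**
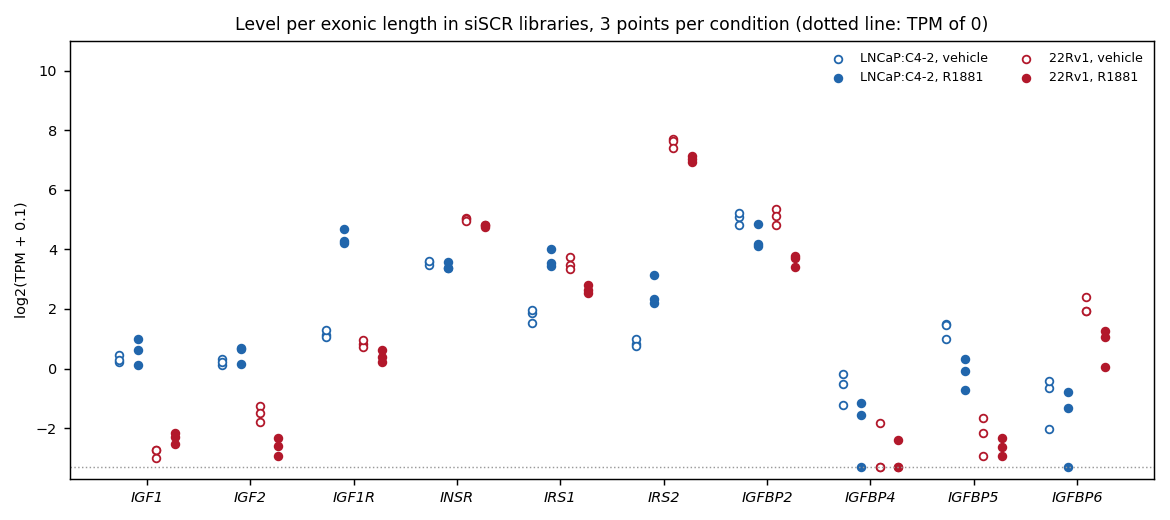
Level of each member per exonic length in the siSCR libraries, with log2 of TPM after a small constant was added on the vertical axis, blue for LNCaP:C4-2, red for 22Rv1, open points for vehicle and filled points for R1881, 3 libraries each. IRS2 of 22Rv1 lies above all other members, and IGF1R of LNCaP:C4-2 goes from 2.14 to 21.2 TPM with R1881.

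The ligands were scarce in both lines. IGF1 had 50, 62 and 49 counts in LNCaP:C4-2 siSCR vehicle libraries and 2, 1 and 2 counts in those of 22Rv1, a ratio of summed counts, scaled by library size, of 33.5 (14.1 to 105), where the brackets give the exact 95% interval for counting error only. IGF2 had 41, 37 and 36 counts against 10, 8 and 6, a ratio of 4.95 (3.16 to 8.03). Both were called as lower in 22Rv1 (log2 -4.96 ± 0.49, edgeR adjusted p = 9.46e-10 for IGF1 and log2 -2.29 ± 0.36, edgeR adjusted p = 2.3e-06 for IGF2). In the annotation of the count files 82.8% of the exonic bases of IGF1 also belong to HELLPAR, a long non-coding RNA on the opposite strand with 28 to 148 counts per library. Counting did not use strand and by default left out fragments that lay on more than one gene, so the IGF1 counts come from the remaining exonic bases. Its TPM, which divides by all 8087 exonic bases, and its place in the orders of levels are understated for that reason. INS-IGF2, a read-through gene that covers 15.9% of the exonic bases of IGF2, where fragments were left out likewise, had 0 counts in all 24 libraries, which allows up to 3 counts in each, and the antisense IGF2-AS had at most 1.

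INSR and IRS1 were higher in 22Rv1 in vehicle (log2 1.20 ± 0.085, edgeR adjusted p = 1.25e-12 and log2 1.52 ± 0.14, edgeR adjusted p = 4.9e-10), and the binding proteins differed in both directions. IGFBP6, which prefers IGF2 as its ligand, had 24, 33 and 24 counts in 22Rv1 against 4, 5 and 1, a ratio of 7.78 (4.02 to 16.8). IGFBP5, a binding protein that also attaches to extracellular matrix, had 1, 4 and 7 counts in 22Rv1 against 102, 104 and 67 in LNCaP:C4-2, a ratio of 23.7 (13.3 to 46.4) in favour of the latter. IGFBP4, which restrains IGF action until the protease PAPPA cleaves it, had 0, 0 and 2 counts in 22Rv1 against 10, 8 and 4, a ratio of 11.5 (2.82 to 100.5), also in favour of LNCaP:C4-2. IGFBP2 did not pass the test (log2 -0.18 ± 0.19, edgeR adjusted p = 0.407), with an interval from -0.57 to 0.21 at 2 SE. In all, 9 of 10 members were called between the lines in vehicle and 9 of 10 with R1881, where 59.2% and 60.1% of all 19437 genes tested were called too, so that a difference between the lines was common among all genes. IGF1, IGF2, IGFBP4 and IGFBP5 passed the filter on low counts only through LNCaP:C4-2, and IGFBP6 only through 22Rv1, in each case the line in which the gene was higher. With at least 10 counts in every library these genes were not tested, and 3 and 5 members were called.

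IGF1R was called in vehicle with little to spare, 1.5-fold lower in 22Rv1 (log2 -0.59 ± 0.19, edgeR adjusted p = 0.00619). It was under the fold threshold with DESeq2 (log2 -0.51), and without LNCaP:C4-2 replicate 1 or 3 (-0.57 and -0.49) or 22Rv1 replicate 1 or 2 (-0.53 and -0.50). With R1881 the gene was 21.8-fold lower in 22Rv1 (log2 -4.45 ± 0.18, edgeR adjusted p = 1.28e-17). IRS1 was 2.86-fold higher in 22Rv1 in vehicle and 2.62-fold lower with R1881 (log2 -1.39 ± 0.14, edgeR adjusted p = 1.22e-09). IGFBP4 was the member not called with R1881 (log2 -2.54 ± 1.24, edgeR adjusted p = 0.0675), and it was called without LNCaP:C4-2 replicate 3 (log2 -3.17) or 22Rv1 replicate 3 (log2 -4.39).

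R1881 raised the receptor IGF1R and both adapters in LNCaP:C4-2, and lowered IGFBP5. IGF1R had 8.37, 8.18 and 9.52 CPM in the siSCR vehicle libraries and 110.3, 84.6 and 79.9 CPM with R1881. Every R1881 library was above every vehicle library. The gene rose 10.5-fold (log2 3.40 ± 0.19, edgeR adjusted p = 2.78e-09). Under siMETTL3 it went from 14, 8.52 and 10.4 CPM to 78.3, 85.1 and 62.3 CPM, a rise of 6.87-fold (log2 2.78 ± 0.18, edgeR adjusted p = 2.53e-08).

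IRS1, the adapter best known for carrying IGF1R signals to PI3-kinase, rose from 10.5, 11.4 and 8.21 CPM to 50.4, 36.8 and 34.6 CPM in siSCR cells, 4.03-fold (log2 2.01 ± 0.16, edgeR adjusted p = 2.37e-07). IRS2, which serves the insulin and IGF1 receptors alike, rose from 4.03, 4.64 and 3.88 CPM to 22.6, 12.8 and 11.8 CPM, 3.76-fold (log2 1.91 ± 0.24, edgeR adjusted p = 2.41e-05). Groups did not overlap for either gene. In CPM, replicate 1 of the R1881 libraries was the highest of its group for IGF1R, IRS1, IRS2, INSR, IGFBP2, IGFBP5 and IGF2, but not for IGF1, IGFBP4 or IGFBP6. Under siMETTL3 IRS1 rose 3.54-fold (log2 1.82 ± 0.16, edgeR adjusted p = 8.39e-07) and IRS2 3.48-fold (log2 1.80 ± 0.23, edgeR adjusted p = 5.08e-05).

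INSR, in contrast, had 37.1, 35.3 and 38.1 CPM in vehicle and 39, 34.4 and 34.8 CPM with R1881. The groups overlapped, and INSR did not pass the test (log2 -0.031 ± 0.11, edgeR adjusted p = 0.867), with an interval from -0.24 to 0.18 at 2 SE. The ratio of IGF1R to INSR, both in TPM, was 0.182 ± 0.00969 in siSCR vehicle libraries and 1.96 ± 0.212 with R1881. Under siMETTL3 it was 0.19 ± 0.0328 and 1.55 ± 0.132, so in LNCaP:C4-2 every R1881 library had more IGF1R than INSR mRNA per length and every vehicle library less. In 22Rv1 the ratio ran from 0.0273 to 0.0596 over all 12 libraries.

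Of the binding proteins, IGFBP5 had 5.27, 5.25 and 3.67 CPM in vehicle and 2.36, 1.04 and 1.77 CPM with R1881, with no overlap. It fell 2.72-fold (log2 -1.44 ± 0.26, edgeR adjusted p = 0.000772), and 3.82-fold under siMETTL3 (log2 -1.93 ± 0.24, edgeR adjusted p = 3.23e-05). IGFBP4 had 10, 8 and 4 counts in siSCR vehicle and 3, 4 and 0 with R1881, lower by a ratio of 3 (1.24 to 8.33) that did not pass the test (edgeR adjusted p = 0.123). Under siMETTL3 it had 11, 18 and 14 counts in vehicle against 1, 1 and 3 with R1881 and fell, by a ratio of 8.63 (3.43 to 27.9), with an edgeR adjusted p of 0.00468. In this line IGFBP4 reached 10 counts only in those vehicle libraries and in siSCR vehicle replicate 1. It thus passed the filter on low counts through the group in which it was highest, so the filter and this call are not independent.

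IGFBP2 had 47.8, 54.3 and 39.7 CPM in siSCR vehicle and 42.9, 27.8 and 26.5 CPM with R1881, where the groups overlapped through R1881 replicate 1. It was not called (log2 -0.54 ± 0.20, edgeR adjusted p = 0.059), but it was without that library (log2 -0.79, edgeR adjusted p = 0.00684), in which mitochondrial genes took 7.08% of counts against 9.73% and 9.69% in the other R1881 libraries, without vehicle replicate 3 (log2 -0.65, edgeR adjusted p = 0.0459) and when scaled by library size alone (log2 -0.67, edgeR adjusted p = 0.0222). IGFBP6 was too low in LNCaP:C4-2 to be tested, with 0 to 8 counts in its 12 libraries. IGF1 and IGF2 did not pass (log2 0.42 ± 0.31, edgeR adjusted p = 0.353 and log2 0.40 ± 0.24, edgeR adjusted p = 0.239). In siSCR cells of LNCaP:C4-2 R1881 thus changed 4 of 9 members tested, 3 up and 1 down, where 15.1% of all 16435 genes tested were called. Under siMETTL3 it changed 5 of 9, with IGFBP4 among them, where 10.6% were called.

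**Figure D2:**
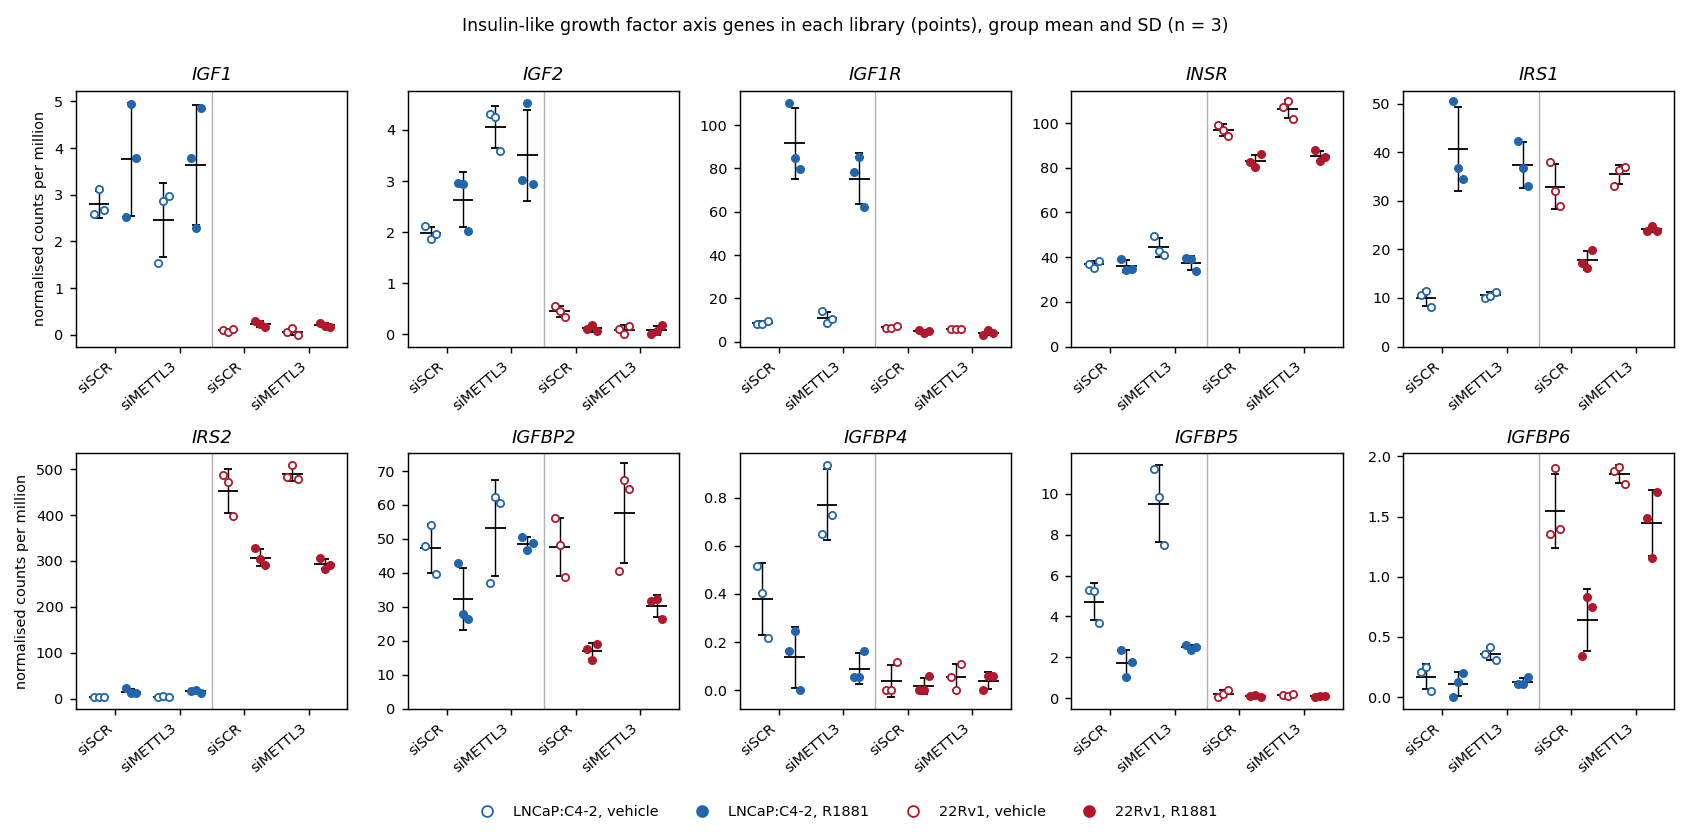
Normalised CPM of each member in each of the 24 libraries (points, open for vehicle, filled for R1881, blue for LNCaP:C4-2, red for 22Rv1), with the mean and SD of each group of 3 in black and a separate vertical axis for each gene. IGF1R of LNCaP:C4-2 siSCR cells lies at 79.9 to 110.3 CPM with R1881 against 8.18 to 9.52 CPM in vehicle, and IRS2 and INSR are higher in 22Rv1 in all conditions.

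In 22Rv1 the members called with R1881 were all lower. Among all genes called there, 1722 were lower and 749 higher in siSCR cells, and 1660 and 746 under siMETTL3. IRS1 had 37.9, 32 and 28.8 CPM in siSCR vehicle and 17.2, 16.2 and 19.9 CPM with R1881, with no overlap, and fell 1.85-fold (log2 -0.89 ± 0.11, edgeR adjusted p = 1.14e-06). IGFBP2, which binds IGF1 and IGF2, fell 2.81-fold, from 56.1, 48.2 and 38.9 CPM to 17.6, 14.3 and 19 CPM (log2 -1.49 ± 0.16, edgeR adjusted p = 3.05e-07). IGFBP6 fell from 24, 33 and 24 counts to 6, 14 and 13 counts (log2 -1.27 ± 0.33, edgeR adjusted p = 0.00559). The mitochondrial share of counts was lower with R1881 too, at 4.96% to 5.28% against 6.12% to 6.89%, and its part in these changes was not tested.

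The other 3 members tested in 22Rv1 passed the adjusted p but not the fold threshold. By adjusted p alone all 6 members tested passed, and so did 5903 of all 17865 genes. IRS2 had 486, 472 and 398 CPM in vehicle against 328, 303 and 290.4 CPM with R1881 (1.47-fold lower, log2 -0.56 ± 0.076, edgeR adjusted p = 6.36e-06). It passed that threshold too without vehicle replicate 3 (log2 -0.64) or R1881 replicate 1 (log2 -0.60), and when scaled by library size alone (log2 -0.62). INSR was 1.17-fold lower (log2 -0.22 ± 0.069, edgeR adjusted p = 0.0155) and IGF1R, with 6.42, 6.11 and 7.26 CPM against 5.51, 4.09 and 4.82 CPM, 1.37-fold lower (log2 -0.45 ± 0.17, edgeR adjusted p = 0.0466). For all 3 genes the vehicle and R1881 libraries were apart, and the share of all genes of which this held was not computed.

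Under siMETTL3 in 22Rv1, R1881 lowered IGFBP2 from 40.7, 67.3 and 64.8 CPM to 31.7, 32.4 and 26.5 CPM (log2 -0.94 ± 0.15, edgeR adjusted p = 6.88e-05). Vehicle replicate 1, the lowest of its group for IGFBP2, had a mitochondrial share of 7.45% against 5.27% and 5.04% in the others. IRS2 fell 1.67-fold (log2 -0.74 ± 0.076, edgeR adjusted p = 1.15e-07). IRS1 was 1.47-fold lower (log2 -0.55 ± 0.10, edgeR adjusted p = 0.000257), under the fold threshold, which it passed without vehicle replicate 1 (log2 -0.60). IGFBP6 (log2 -0.35 ± 0.29, edgeR adjusted p = 0.375) and IGF1R (log2 -0.46 ± 0.18, edgeR adjusted p = 0.0511) did not pass, and IGF1R was called without R1881 replicate 2 (log2 -0.65, edgeR adjusted p = 0.0156). In all, 3 of 6 members tested were called in siSCR and 2 of 6 under siMETTL3, where 13.8% and 13.5% of all 17865 genes were called.

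IGF1, IGF2, IGFBP4 and IGFBP5 were left out of the tests of 22Rv1 by the filter on low counts, with at most 10 counts in any library. IGF2 had 10, 8 and 6 counts in siSCR vehicle and 2, 3 and 1 with R1881, lower by a ratio of 3.95 (1.57 to 11.8). IGF1 had 5, 4 and 3 counts with R1881 against 2, 1 and 2, a ratio of 2.43 (0.796 to 8.8), whose interval includes 1.

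**Figure D3:**
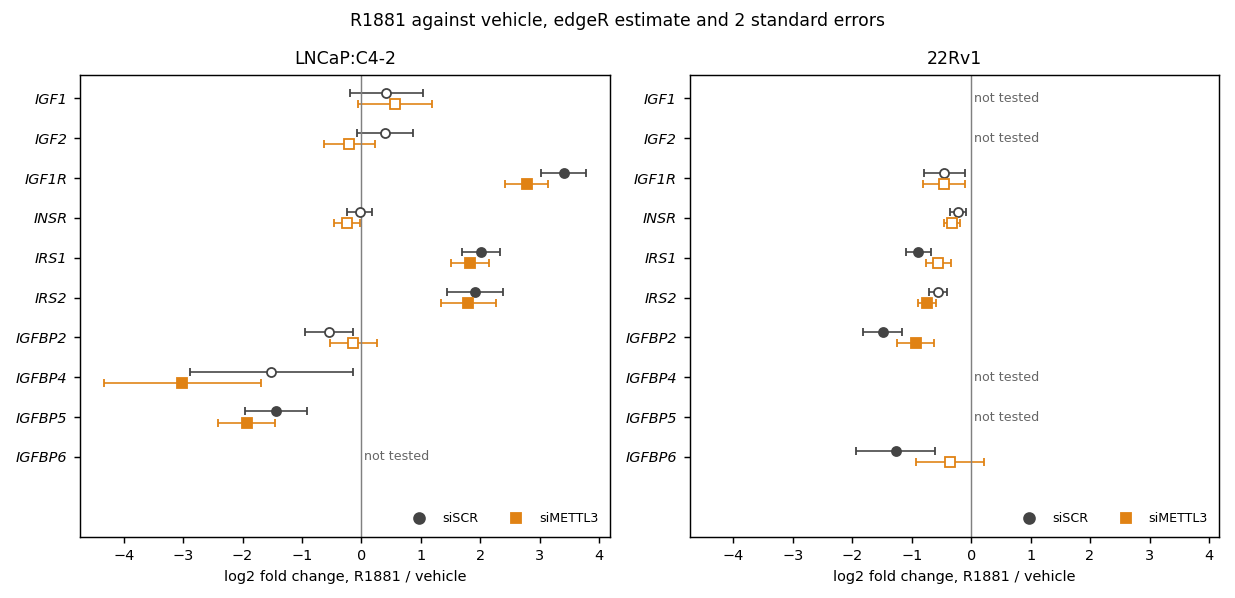
Log2 fold change of R1881 against vehicle for each member in LNCaP:C4-2 (left) and 22Rv1 (right), as edgeR estimates with bars of 2 SE, in siSCR (circles) and siMETTL3 cells (squares), with filled symbols for calls. IGF1R, IRS1 and IRS2 lie between 1.80 and 3.40 in LNCaP:C4-2 and between -0.89 and -0.45 in 22Rv1.

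The difference between the responses of the lines was tested directly in siSCR cells, as the log2 response of 22Rv1 minus that of LNCaP:C4-2 in the fit of all 24 libraries, and called by adjusted p alone. It was called for the receptor IGF1R (log2 -3.86 ± 0.26, edgeR adjusted p = 2.08e-11) and for the adapters IRS1 (log2 -2.90 ± 0.20, edgeR adjusted p = 3.19e-11) and IRS2 (log2 -2.47 ± 0.24, edgeR adjusted p = 2.27e-08). IGF2 (log2 -2.32 ± 0.66, edgeR adjusted p = 0.0159) and IGFBP2 (log2 -0.95 ± 0.28, edgeR adjusted p = 0.0205) were called too, so 5 of 10 members passed, each with a lower response in 22Rv1, where 16.8% of all genes passed. Of these genes 1753 had a lower and 1513 a higher response in 22Rv1. IGF2, with at most 10 counts in any 22Rv1 library, passed the filter on low counts only through LNCaP:C4-2. The call of IGF2 was lost without 22Rv1 vehicle replicate 1 (edgeR adjusted p = 0.0536) or R1881 replicate 3 (0.0555). That of IGFBP2 was lost without LNCaP:C4-2 vehicle replicate 3 (edgeR adjusted p = 0.0603) or R1881 replicate 1 (0.0579), and without 22Rv1 vehicle replicate 1 (0.0665) or R1881 replicate 2 (0.0657). INSR was not called (log2 -0.20 ± 0.12, edgeR adjusted p = 0.3), with an interval from -0.44 to 0.043 at 2 SE.

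Knockdown of METTL3 changed 2 members in LNCaP:C4-2 with vehicle, both upward, where 136 of all genes were called as higher and 61 as lower. IGF2 had 41, 37 and 36 counts with siSCR and 73, 82 and 69 with siMETTL3, with no overlap, and rose 2.04-fold (log2 1.03 ± 0.23, edgeR adjusted p = 0.0335). IGFBP5 had 5.27, 5.25 and 3.67 CPM with siSCR and 11.2, 9.82 and 7.49 CPM with siMETTL3, also with no overlap, and rose 2.01-fold (log2 1.00 ± 0.22, edgeR adjusted p = 0.0369). The call of IGF2 was lost when siSCR replicate 1, 2 or 3 or siMETTL3 replicate 2 was left out (edgeR adjusted p = 0.126, 0.1, 0.172 and 0.146). That of IGFBP5 was lost without siSCR replicate 1, 2 or 3 or siMETTL3 replicate 1 or 2 (edgeR adjusted p = 0.12, 0.0713, 0.2, 0.0511 and 0.147). The 2 calls of 9 members tested stood where 1.2% of all genes were called, which is 197 genes, and 0 without siSCR replicate 3 or 339 without siMETTL3 replicate 1.

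The other members gave log2 changes from -0.18 for IGF1 to 1.01 for IGFBP4, the latter with 10, 8 and 4 against 11, 18 and 14 counts, a ratio of 2.03 (1.19 to 3.56) that did not pass the test (edgeR adjusted p = 0.346). IGF1R (log2 0.33 ± 0.19, edgeR adjusted p = 0.408), IRS1 (log2 0.068 ± 0.17, edgeR adjusted p = 0.881) and IRS2 (log2 0.19 ± 0.25, edgeR adjusted p = 0.751) did not pass. IGFBP2 had 37.1, 62.3 and 60.7 CPM in the siMETTL3 libraries, whose mitochondrial shares were 9.60%, 6.89% and 7.03%, so replicate 1 stood apart in both.

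With R1881 in LNCaP:C4-2 no member was called with siMETTL3, by edgeR or by DESeq2. Of all genes 0.7% were called, which is 115 genes, and 1497 without siSCR replicate 1 or 1 without siMETTL3 replicate 1. An unadjusted p under 0.05 was found for 1 of 9 members, and for 4702 of all 16435 genes. That member was IGFBP2, with 42.9, 27.8 and 26.5 CPM in siSCR and 50.5, 46.7 and 48.7 CPM in siMETTL3 libraries (log2 0.59 ± 0.20, edgeR adjusted p = 0.0933). It was called without siSCR replicate 1 (log2 0.83, edgeR adjusted p = 0.0145). Mitochondrial shares were 7.08% to 9.73% in siSCR and 6.46% to 7.05% in siMETTL3 libraries. IGF1R was not called (log2 -0.28 ± 0.16, edgeR adjusted p = 0.255), with an interval from -0.61 to 0.041 at 2 SE.

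In 22Rv1 with vehicle 0 of the 6 members tested had an unadjusted p under 0.05 with siMETTL3, where 2604 of all 17865 genes had. No member was called by either tool, and 0.202% of all genes were called. That share rests on 36 genes, and the number was 15 without siMETTL3 replicate 2 and 228 without siMETTL3 replicate 1. Estimates ran from -0.19 for IGF1R to 0.27 for IGFBP2. IGF2, which was not tested, had 10, 8 and 6 counts in siSCR and 2, 0 and 3 in siMETTL3 libraries, lower by a ratio of 5.29 (1.98 to 17.7). In the fit of all 24 libraries IGF2 passed the filter on low counts only through LNCaP:C4-2, where it was higher. There the effect of siMETTL3 on IGF2 in vehicle was lower in 22Rv1 than in LNCaP:C4-2 (log2 -3.35 ± 0.67, edgeR adjusted p = 0.0178), the 1 of 10 members called for this difference, where 0.458% of all genes were. These were 89 genes, and 14 without LNCaP:C4-2 siSCR replicate 1 or 308 without LNCaP:C4-2 siMETTL3 replicate 3. Leaving out LNCaP:C4-2 siSCR replicate 1 or 3 or siMETTL3 replicate 2 raised the edgeR adjusted p to 0.0569, 0.052 and 0.0508, and leaving out 22Rv1 siSCR replicate 1 or 2 or siMETTL3 replicate 2 raised it to 0.0676, 0.0594 and 0.0953.

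With R1881 in 22Rv1 the binding proteins IGFBP2 and IGFBP6 rose with siMETTL3, where 411 of all genes were called as higher and 176 as lower. IGFBP2 had 17.6, 14.3 and 19 CPM in siSCR and 31.7, 32.4 and 26.5 CPM in siMETTL3 libraries, with no overlap, and rose 1.78-fold (log2 0.83 ± 0.17, edgeR adjusted p = 0.00355). IGFBP6 rose from 6, 14 and 13 to 23, 19 and 29 counts (log2 1.17 ± 0.34, edgeR adjusted p = 0.0235). Its call was lost without siSCR replicate 1 or 3 (edgeR adjusted p = 0.101 and 0.0522) or siMETTL3 replicate 1 or 3 (0.0819 and 0.0845). IRS1 was 1.36-fold higher (log2 0.44 ± 0.11, edgeR adjusted p = 0.0106), under the fold threshold. The 2 calls of 6 stood where 3.29% of all genes were called, which is 587 genes, and 309 without siMETTL3 replicate 1 or 349 without siSCR replicate 2. Mitochondrial genes took 4.96% to 5.28% of counts in siSCR and 3.93% to 4.24% in siMETTL3 libraries, which did not overlap either, and the part of this in the changes of IGFBP2 and IGFBP6 was not tested.

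**Figure D4:**
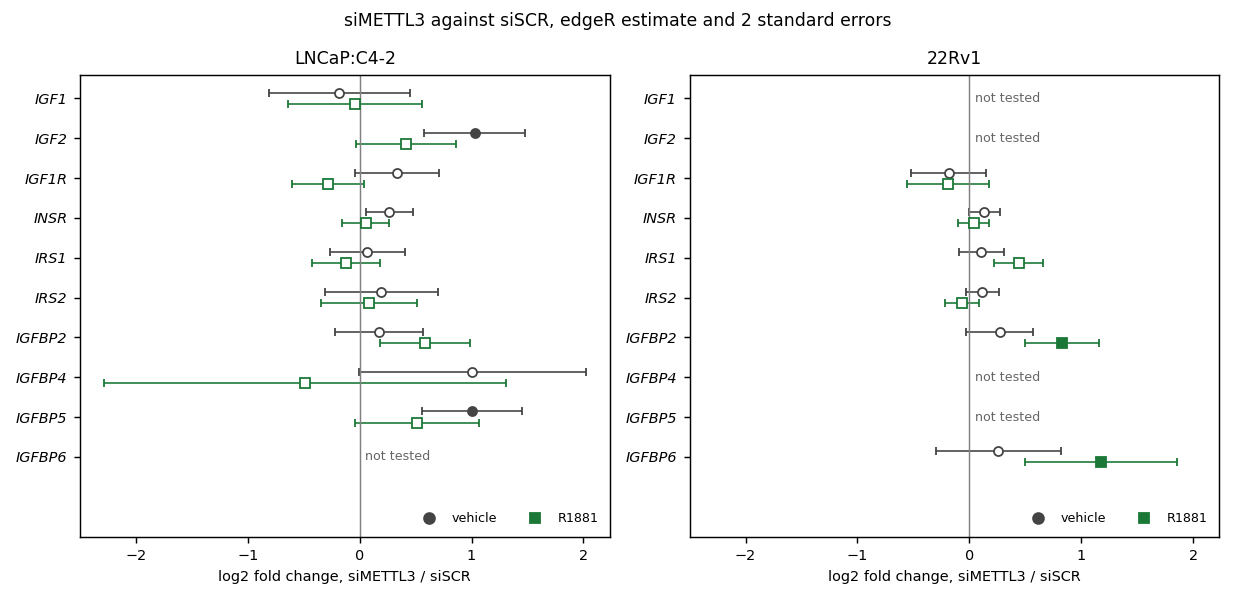
Log2 fold change of siMETTL3 against siSCR for each member in LNCaP:C4-2 (left) and 22Rv1 (right), as edgeR estimates with bars of 2 SE, with vehicle (circles) and R1881 (squares), with filled symbols for calls. The 4 filled symbols are IGF2 and IGFBP5 in LNCaP:C4-2 with vehicle and IGFBP2 and IGFBP6 in 22Rv1 with R1881.

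Whether the knockdown changed the response to R1881 was tested by the interaction, called by adjusted p alone. No member was called in either line, by edgeR or by DESeq2. In LNCaP:C4-2 the 1 of 9 members with an unadjusted p under 0.05 was IGF1R, whose response was lower under siMETTL3 (log2 -0.62 ± 0.25, interval from -1.11 to -0.12 at 2 SE, edgeR adjusted p = 0.37). There edgeR called 0 of 16435 genes, 0%, with 2037 at an unadjusted p under 0.05, and DESeq2 called 55. Without siMETTL3 vehicle replicate 3 edgeR called 8. In 22Rv1 1101 of all 17865 genes had an unadjusted p under 0.05. So had 2 of 6 members, IGFBP2 (log2 0.56 ± 0.22, edgeR adjusted p = 0.802) and IRS1 (log2 0.34 ± 0.15, edgeR adjusted p = 0.81). By adjusted p 3 genes, 0.0168% of those tested, were called in 22Rv1, or 30 without siSCR vehicle replicate 3. IGFBP2 was called there with no filter on low counts (log2 0.57, edgeR adjusted p = 0.0361).

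Beyond the members, IGFBP3, the main carrier of IGFs in blood, was called for the interaction in 22Rv1 (log2 -0.77 ± 0.11, edgeR adjusted p = 0.00265). With R1881 in siSCR cells it fell 7.06-fold in LNCaP:C4-2 (log2 -2.82 ± 0.24, edgeR adjusted p = 3.34e-07) and rose 2.63-fold in 22Rv1 (log2 1.39 ± 0.076, edgeR adjusted p = 3.68e-12). The make-up of the binding protein mRNA, as percent of the summed TPM of IGFBP1 to IGFBP6, also moved in opposite directions. IGFBP2 was 47.4% ± 6.03 of the sum in LNCaP:C4-2 siSCR vehicle libraries and 78.2% ± 6.94 with R1881, while in 22Rv1 it was 25.5% ± 3.65 and 4.46% ± 0.736. IGFBP3 was 47.7% ± 7.08 and 16.7% ± 6.6 in LNCaP:C4-2, and 69.6% ± 3.67 and 89.1% ± 1.04 in 22Rv1. The sum itself was 69.5 ± 2.22 and 27 ± 6 TPM in LNCaP:C4-2, and 135 ± 6.88 and 279 ± 17.9 TPM in 22Rv1 (all SD, n = 3).

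**Figure D5:**
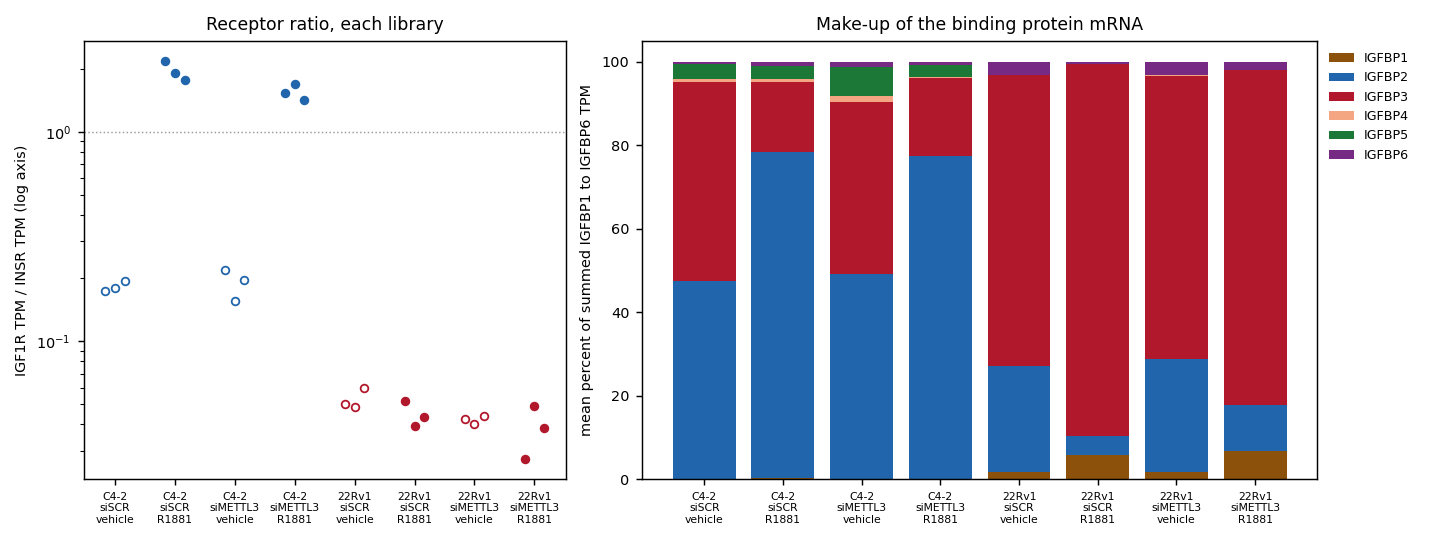
Left, ratio of IGF1R to INSR TPM in each library on a log axis, with a dotted line at 1, blue for LNCaP:C4-2 and red for 22Rv1, open points for vehicle and filled points for R1881. Right, mean percent of the summed TPM of IGFBP1 to IGFBP6 taken by each gene in the 8 conditions of 3 libraries, where IGFBP2 holds 78.2% in LNCaP:C4-2 with siSCR and R1881 and 4.46% in that condition of 22Rv1.

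Of 13 other extracellular regulators of the axis, 8 were tested in each line. With R1881 in siSCR cells 2 fell and 0 rose in LNCaP:C4-2, IGFBP3 and HTRA1, a protease that cleaves IGFBPs (log2 -1.64 ± 0.41, edgeR adjusted p = 0.00794). In 22Rv1 2 rose and 0 fell, IGFBP3 and IGFBP1, which had 14 to 21 counts in vehicle and 121 to 152 with R1881 (log2 2.91 ± 0.23, edgeR adjusted p = 2.19e-09). Calls were thus 2 of 8 in each line, where 15.1% and 13.8% of all genes were called. The median log2 changes of the list were -0.27 and 0.12, beside -0.028 and 0.0021 over all genes tested. With siMETTL3 in LNCaP:C4-2 vehicle cells STC1 and STC2, inhibitors of PAPPA, rose (log2 0.82 ± 0.13, edgeR adjusted p = 0.00977 and log2 0.88 ± 0.19, edgeR adjusted p = 0.0293), as 2 of 8, where 1.2% of all genes were called. Both calls were lost without siSCR replicate 3 and with the 1.5-fold threshold inside the test, where 0 of all genes were called. With siMETTL3 in 22Rv1 R1881 cells IGFBP3 fell (log2 -0.61 ± 0.074, edgeR adjusted p = 4.57e-05), as 1 of 8, where 3.29% of all genes were called. That change was under the fold threshold without siSCR replicate 1 (log2 -0.57) or siMETTL3 replicate 2 (log2 -0.56), and with no filter on low counts (log2 -0.57). In the other 2 knockdown comparisons 0 of 8 were called, where 0.7% (LNCaP:C4-2 with R1881) and 0.202% (22Rv1 with vehicle) of all genes were. In LNCaP:C4-2 with R1881 IGFBP3 was called as higher by DESeq2 (log2 0.81, DESeq2 adjusted p = 0.0168). It was also called there with no filter on low counts (log2 0.82, edgeR adjusted p = 4.25e-05).

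Of 15 adapters and brakes of the receptors, 13 were tested in each line. In LNCaP:C4-2 with siSCR, R1881 raised SOCS2, a feedback inhibitor of cytokine and growth hormone signals (log2 2.67 ± 0.22, edgeR adjusted p = 3.1e-07), and lowered GRB10 and GRB14, which bind the insulin and IGF1 receptors and restrain them (log2 -1.21 ± 0.081, edgeR adjusted p = 2.87e-08 and log2 -0.95 ± 0.24, edgeR adjusted p = 0.00914). GRB10 had 481 ± 17.2 TPM in vehicle and 196 ± 6.08 TPM with R1881. In 22Rv1 GRB14 fell (log2 -2.12 ± 0.16, edgeR adjusted p = 6.97e-10), as did the docking protein GAB1 (log2 -0.65 ± 0.15, edgeR adjusted p = 0.00183), and the other 11 were not called. These 3 of 13 and 2 of 13 stood beside 15.1% and 13.8% of all genes. Median changes of the list were 0.14 and 0.036. With siMETTL3 0 of 13 were called in any of the 4 comparisons, where 0.202% to 3.29% of all genes were called.

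Of 32 genes of PI3K, AKT and mTOR signalling, 30 were tested in each line, and with R1881 in siSCR cells 4 rose and 3 fell in LNCaP:C4-2 and 2 rose and 0 fell in 22Rv1. The 7 of 30 and 2 of 30 stood beside 15.1% and 13.8% of all genes called. Median changes were -0.014 and 0.099. INPP4B, a lipid phosphatase that counters PI3-kinase, rose 10.0-fold in LNCaP:C4-2 and 2.26-fold in 22Rv1 (log2 3.32 ± 0.23, edgeR adjusted p = 3.91e-08 and log2 1.17 ± 0.12, edgeR adjusted p = 7.13e-08). MTOR, the kinase itself, rose 2.09-fold and 1.76-fold (log2 1.07 ± 0.10, edgeR adjusted p = 1.75e-06 and log2 0.81 ± 0.067, edgeR adjusted p = 3.25e-09). SESN3, a stress-induced inhibitor of mTOR complex 1, fell in LNCaP:C4-2 (log2 -0.90 ± 0.17, edgeR adjusted p = 0.000978). With siMETTL3, 0 of these 30 genes were called in vehicle in either line, where 1.2% and 0.202% of all genes were called. With R1881 1 was called in each, where 0.7% and 3.29% of all genes were. PIK3R1 was lower in LNCaP:C4-2 (1.52-fold, log2 -0.60 ± 0.13, edgeR adjusted p = 0.0482) and DDIT4 higher in 22Rv1 (1.51-fold, log2 0.60 ± 0.13, edgeR adjusted p = 0.0048). Both were close to the fold threshold, and PIK3R1 was close to that of the adjusted p too. In the comparison of PIK3R1 115 of all genes were called, and 1497 without siSCR replicate 1 or 1 without siMETTL3 replicate 1.

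The 3 IGF2 mRNA-binding proteins, which read m6A and bind IGF2 mRNA among others, were called as higher in 22Rv1 in siSCR vehicle cells. Of all 19437 genes tested 59.2% were called between the lines there. IGF2BP1 and IGF2BP2 passed the filter on low counts only through 22Rv1, where they were higher. IGF2BP1 had 0 counts in the LNCaP:C4-2 siSCR vehicle libraries, which allows up to 3 in each, and 501 to 653 counts in those of 22Rv1. IGF2BP2 had 0.132 ± 0.128 TPM in LNCaP:C4-2 and 18 ± 2 TPM in 22Rv1 in the same condition, and IGF2BP3 9.95 ± 0.742 and 29.1 ± 2.62 TPM. The 1 tested in LNCaP:C4-2 and the 3 tested in 22Rv1 were not called with R1881 or with siMETTL3. Of all genes 10.6% to 15.1% were called with R1881 and 0.202% to 3.29% with siMETTL3.

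Cell type markers moved with R1881 too. In siSCR cells 5 of 10 luminal markers rose in LNCaP:C4-2 and 2 of 10 fell in 22Rv1, where both stromal markers tested, COL1A1 and LUM, fell as well, where 15.1% and 13.8% of all genes were called. In LNCaP:C4-2 the basal marker KRT14 (log2 4.54 ± 1.03) and the endothelial marker VWF (log2 0.94 ± 0.29) rose and the immune marker PTPRC fell (log2 -7.61 ± 0.83), each the 1 of its list that was tested. KRT14 and PTPRC were near the floor in the group in which they were lower. They passed the filter on low counts through the group in which they were higher, so the filter and these calls are not independent. Summed TPM over each whole list ran from 12.6 to 23.7 for stromal markers in LNCaP:C4-2 and from 7.29 to 15.8 in 22Rv1, and reached at most 1.22, 3.73 and 0.809 for basal, endothelial and immune markers in LNCaP:C4-2. Their part in the members' changes was not tested.

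For each member called within a line, the genes whose profile over its 12 libraries came closest were found by the root mean square difference of centred log2 CPM, among genes with a mean of at least 5 CPM. In LNCaP:C4-2 these were LOX and ENSG00000261578 for IGF1R (0.158 and 0.175), CAMKK2 and ABCC1 for IRS1 (0.141 and 0.166), and VSIG10L and CAMKK2 for IRS2 (0.156 and 0.173). In 22Rv1 they were PIF1 and SMCO4 for IRS1 (0.0671 and 0.0783), NFIX for IRS2 (0.0744), and KCNIP3 and APOE for IGFBP2 (0.168 and 0.186). IGF2, IGFBP4 and IGFBP5 in LNCaP:C4-2 and IGFBP6 in 22Rv1 were called but lay under that level.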

How the data were processed

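RNA-seq of 24 libraries was used, and groups follow the labels. Per the labels, the submitters' processing notes name Trim Galore, cutadapt, FastQC and STAR, whose versions are not given in the sources used here. Per the file headers, the authors counted fragments per gene with featureCounts 1.5.0-p1 and the Ensembl 83 annotation of GRCh38, with no strand option, so the deposited values are raw counts and fragments on more than one gene were left out by default.

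Counts of the 12 libraries of a line were fitted with a mean per condition in edgeR 4.0.16 (R 4.3.3), with TMM normalisation, filterByExpr (count minimum 10, total 15), glmQLFit and glmQLFTest. All 24 libraries were fitted for differences between lines. p-values were adjusted over all genes tested. SE is the absolute log2 change divided by the square root of F. CPM uses TMM sizes within a line, and TPM the counts and exonic lengths. Intervals of count ratios are exact and cover counting error only. Some of the tests, none of them siMETTL3 against siSCR, were checked on simulated data. Changes were set there only in genes well above the filter on low counts, so genes at low counts were not covered. DESeq2 1.42.0, other normalisations, filters, thresholds and left-out libraries were the alternatives.

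The members and lists were chosen with earlier results of these data known. The text names all members, METTL3, IGFBP3, the genes overlapping IGF2, marker genes, from each list the up to 3 called genes with the largest change in a comparison, and the 2 genes most alike in profile, of which 1 for IRS2 is not reported here. HELLPAR was named after its counts were seen.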

Additional observations from a re-analysis of the deposited data

Results flagged for a closer look

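The difference between the lines in the response to R1881 in siSCR cells was tested for every gene, and all members that passed and, from each list, up to 3 genes with the largest difference are given as the log2 response of 22Rv1 minus that of LNCaP:C4-2. Among the members these were IGF1R (-3.86), IRS1 (-2.90), IRS2 (-2.47), IGF2 (-2.32) and IGFBP2 (-0.95). For IGF2 the filter on low counts was met only through LNCaP:C4-2. Among 10 extracellular regulators tested 3 passed, IGFBP3 (4.21), HTRA1 (1.54) and the IGF2 clearance receptor IGF2R (0.67). Among 15 adapters and brakes 4 passed, with the largest differences for SOCS2 (-2.23), GRB10 (1.30) and GRB14 (-1.18). Among 31 genes of PI3K, AKT and mTOR signalling 6 passed, with the largest differences for INPP4B (-2.15), SESN2 (0.88) and PIK3R1 (0.55). Of all genes 16.8% passed.

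The effect of siMETTL3 in vehicle differed between the lines, by the same kind of test, for IGF2 (-3.35) and STC2 (-1.04), both lower in 22Rv1. The response of IGFBP3 to R1881 in 22Rv1 differed between siMETTL3 and siSCR cells (-0.77), lower with siMETTL3.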

How the results depend on the processing

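Of 42 called values of members, no alternative setting changed the direction, and 350 of 370 comparisons kept the call, as did 259 of 288 with one library left out. Counts of members called moved by over 1.5 times in these cases, and the cause was not tested. With an adjusted p under 0.01 the count was 0 for siMETTL3 in LNCaP:C4-2 with vehicle, 1 for siMETTL3 in 22Rv1 with R1881, 3 for the lines in the R1881 response and 0 for the lines in the knockdown effect. With the 1.5-fold threshold inside the test the count was 0 for siMETTL3 in LNCaP:C4-2 with vehicle, 0 for R1881 in siMETTL3 22Rv1 cells and 0 for siMETTL3 in 22Rv1 with R1881. With only the 6 libraries compared the count was 0 for siMETTL3 in LNCaP:C4-2 with vehicle. With no fold-change threshold the count was 6 for R1881 in siSCR 22Rv1 cells and 4 for R1881 in siMETTL3 22Rv1 cells. With at least 10 counts in every library the count was 1 for siMETTL3 in 22Rv1 with R1881, 3 for the lines in vehicle, 5 for the lines with R1881 and 0 for the lines in the knockdown effect. With no filter on low counts the count was 1 for the interaction in 22Rv1. With one library left out, counts ran from 0 to 2 for siMETTL3 in LNCaP:C4-2 with vehicle, 0 to 1 for siMETTL3 in LNCaP:C4-2 with R1881, 1 to 2 for siMETTL3 in 22Rv1 with R1881, 3 to 5 for the lines in the R1881 response and 0 to 1 for the lines in the knockdown effect. The METTL3 log2 change crossed its call at -0.61 for siMETTL3 in LNCaP:C4-2 with vehicle with an adjusted p under 0.01, with the 1.5-fold threshold inside the test and with only the 6 libraries compared, -0.57 for siMETTL3 in LNCaP:C4-2 with R1881 with no fold-change threshold and -0.89 for siMETTL3 in 22Rv1 with vehicle with the 1.5-fold threshold inside the test. With one library left out it ran from -0.66 to -0.55 for siMETTL3 in LNCaP:C4-2 with vehicle and -0.65 to -0.52 for siMETTL3 in LNCaP:C4-2 with R1881. The uncalled IGF1R interaction in 22Rv1 had the other sign, at 0.0028 with DESeq2, 0.0015 with RLE size factors, 0.016 with no filter on low counts and 0.013 with at least 10 counts in every library. Uncalled values also crossed 0 with one library left out, over these log2 ranges. For R1881 in siSCR LNCaP:C4-2 cells they were INSR -0.082 to 0.0015. For siMETTL3 in LNCaP:C4-2 with vehicle they were IRS1 -0.056 to 0.17, IGF1 -0.34 to 0.056 and IGFBP3 -0.21 to 0.024. For siMETTL3 in LNCaP:C4-2 with R1881 they were IRS1 -0.23 to 0.053, IGF1 -0.30 to 0.20, IRS2 -0.096 to 0.42 and IGFBP4 -1.17 to 0.18. For the interaction in LNCaP:C4-2 they were IGF1 -0.12 to 0.38 and IRS2 -0.29 to 0.23. For the interaction in 22Rv1 they were IGF1R -0.20 to 0.17. For the lines in the R1881 response they were IGFBP6 -1.25 to 0.16 and IGFBP4 -1.15 to 3.34. For the lines in the knockdown effect they were IRS1 -0.073 to 0.16, IGFBP2 -0.099 to 0.28, IRS2 -0.17 to 0.025, IGFBP4 -1.48 to 2.04 and IGF1 -1.35 to 0.26. The number of all genes called moved by over 1.5 times too, and the lowest and highest such counts with all libraries kept are given. For R1881 in siSCR LNCaP:C4-2 cells it was 2484, against 1014 with the 1.5-fold threshold inside the test and 4081 with adjusted p alone. For R1881 in siMETTL3 LNCaP:C4-2 cells it was 1747, against 765 with the 1.5-fold threshold inside the test and 2728 with adjusted p alone. For siMETTL3 in LNCaP:C4-2 with vehicle it was 197, against 0 with the 1.5-fold threshold inside the test and 464 with no filter on low counts. For siMETTL3 in LNCaP:C4-2 with R1881 it was 115, against 1 with the 1.5-fold threshold inside the test and 776 with no filter on low counts. For the interaction in LNCaP:C4-2 it was 0, against 55 with DESeq2 and 351 with no filter on low counts. For R1881 in siSCR 22Rv1 cells it was 2471, against 964 with the 1.5-fold threshold inside the test and 5903 with adjusted p alone. For R1881 in siMETTL3 22Rv1 cells it was 2406, against 932 with the 1.5-fold threshold inside the test and 5917 with adjusted p alone. For siMETTL3 in 22Rv1 with vehicle it was 36, against 3 with the 1.5-fold threshold inside the test and 100 with adjusted p alone. For siMETTL3 in 22Rv1 with R1881 it was 587, against 10 with the 1.5-fold threshold inside the test and 2897 with adjusted p alone. For the interaction in 22Rv1 it was 3, against 79 with no filter on low counts. For the lines in vehicle it was 11497, against 6371 with at least 10 counts in every library. For the lines with R1881 it was 11689, against 6641 with at least 10 counts in every library. For the lines in the R1881 response it was 3266, against 1813 with the stricter threshold. For the lines in the knockdown effect it was 89, against 15 with the stricter threshold and 327 with DESeq2. With one library left out it ran from 0 to 339 for siMETTL3 in LNCaP:C4-2 with vehicle, 1 to 1497 for siMETTL3 in LNCaP:C4-2 with R1881, 0 to 8 for the interaction in LNCaP:C4-2, 15 to 228 for siMETTL3 in 22Rv1 with vehicle, 309 to 538 for siMETTL3 in 22Rv1 with R1881, 2 to 30 for the interaction in 22Rv1 and 14 to 308 for the lines in the knockdown effect, and stayed within 1.5 times in the other comparisons.

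Replicate numbers did not pair the libraries: deviations of same-numbered libraries correlated at a mean of -0.017 in LNCaP:C4-2 and -0.01 in 22Rv1 (18 pairs each). With a replicate block the counts of members called stayed within 1.5 times of those given, and 1 call changed, IGFBP4 between the lines with R1881 (log2 -3.66, edgeR adjusted p = 0.0382). The number of all genes called for siMETTL3 in LNCaP:C4-2 with R1881 was 39 with the block and 115 without it. Scaling by library size alone moved the median of all genes by -0.118 for R1881 in siSCR LNCaP:C4-2 cells and by 0.149 and 0.208 between the lines in vehicle and with R1881. Depth limits IGF1, IGF2, IGFBP4 and IGFBP5 in 22Rv1 and IGFBP4 and IGFBP6 in LNCaP:C4-2, whose counts are near the floor of 3.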
